A study of Mus musculus with 479 samples.

Results

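The cell proliferation genes described here are 34 transcripts of S phase and mitosis, taken by name from 24475 genes in the count tables, and every one of the 34 was matched by its NCBI gene identifier. They fall into 11 S phase genes and 23 mitosis genes. The S phase genes are the 6 subunits of the Mcm2 to Mcm7 helicase, the sliding clamp Pcna, and the nucleotide supply enzymes Rrm1, Rrm2, Tyms and Tk1. The mitosis genes are the transcription factor Foxm1, the cyclins Ccna2, Ccnb1 and Ccnb2 with Cdk1, the kinases and checkpoint genes Aurka, Aurkb, Plk1, Bub1, Bub1b and Birc5, the anaphase genes Cdc20 and Ube2c, the spindle and cytokinesis genes Kif11, Kif20a, Kif23, Cenpe, Cenpf, Nusap1, Prc1 and Tpx2, and the chromosome genes Mki67 and Top2a.

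A cell that divides first loads and fires the Mcm helicase, copies its DNA with Pcna holding the polymerase in place, and draws on ribonucleotide reductase (Rrm1 with Rrm2), thymidylate synthase (Tyms) and thymidine kinase (Tk1) for DNA building blocks. E2F factors switch the S phase genes on, and the MuvB complex with B-Myb and Foxm1 switches the mitosis genes on later. Dchs1 and Fat4 are large atypical cadherins that bind each other on neighbouring cells, and their fly relatives act upstream of the Hippo pathway, which restrains growth. In adult heart, kidney and liver most parenchymal cells are at rest, and in bulk tissue fewer dividing cells and less RNA per cell cannot be told apart.

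Bulk mRNA came from 4 organs (heart, kidney, liver, lung) of mice heterozygous (Het) for Dchs1 (Dchs1+/-) or for Fat4 (written Fat+/- in the design text), made with VelociGene technology, and of wild-type (WT) littermates. Every group shared the C57BL/6NTac background. The sources used here give no age, sex or description of the altered alleles. Each line, tissue and genotype had 30 libraries, except 29 Dchs1 Het livers, for 479 in all, and p-values measure the spread between these libraries. Library totals ran from 10720364 to 32282525 estimated counts. The targeted gene was lower in Het in all 8 comparisons: mean Dchs1 CPM (counts scaled to library size) were 41.0% to 46.5% of wild type, and mean Fat4 CPM 47.6% to 51.9%. Tissue markers matched the labels, with summed TPM (a level scaled to transcript length) of at least 9757 for heart muscle genes in every heart, 946.8 for kidney genes in every kidney, 38680 for hepatocyte genes in every liver and 72570 for lung epithelium genes in every lung. Some hearts also held lung epithelium RNA, above 10 TPM in 8 WT and 5 Het of the Dchs1 line and in 9 WT and 3 Het of the Fat4 line.

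Start regions of 6 members are shown because these genes differed between Het and WT in the largest number of comparisons, with ties broken by the smallest p, 3 from S phase and 3 from mitosis. Each is 300 bases from RefSeq on GRCm38.p6, 250 before and 50 after the start, read 5′ to 3′ on the gene's strand. Capitals mark E2F words (TTTCCCGC, TTTCGCGC, TTTGCCGC or TTTGGCGC), the cell cycle homology element of mitosis genes (TTTGAA) and the NF-Y box (CCAAT), each on either strand. The regions are Pcna at chr2:132253131-132253430 (minus strand), Tk1 at chr11:117825965-117826264 (minus), Mcm7 at chr5:138171834-138172133 and, for a second start, at chr5:138171217-138171516 (minus), Kif11 at chr19:37376132-37376431 (plus), Cenpf at chr1:189688037-189688336 (minus) and Kif23 at chr9:61946750-61947049 (minus).
Pcna: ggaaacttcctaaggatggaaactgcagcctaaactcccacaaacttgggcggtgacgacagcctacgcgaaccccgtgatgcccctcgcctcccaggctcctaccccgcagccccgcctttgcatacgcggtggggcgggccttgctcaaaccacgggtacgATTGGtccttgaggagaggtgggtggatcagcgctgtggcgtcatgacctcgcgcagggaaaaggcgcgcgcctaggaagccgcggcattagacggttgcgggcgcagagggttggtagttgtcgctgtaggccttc
Tk1: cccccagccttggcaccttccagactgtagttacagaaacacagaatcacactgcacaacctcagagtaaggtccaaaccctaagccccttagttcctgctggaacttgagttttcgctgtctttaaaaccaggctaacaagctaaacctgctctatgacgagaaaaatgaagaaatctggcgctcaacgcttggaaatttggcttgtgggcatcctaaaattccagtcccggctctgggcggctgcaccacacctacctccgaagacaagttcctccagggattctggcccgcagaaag
Mcm7, first start: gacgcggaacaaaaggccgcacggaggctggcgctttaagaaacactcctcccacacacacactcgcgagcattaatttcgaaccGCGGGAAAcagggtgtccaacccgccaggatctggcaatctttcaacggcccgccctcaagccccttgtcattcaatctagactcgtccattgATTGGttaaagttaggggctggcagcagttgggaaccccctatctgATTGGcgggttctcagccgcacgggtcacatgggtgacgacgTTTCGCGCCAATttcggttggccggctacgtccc
Mcm7, other start: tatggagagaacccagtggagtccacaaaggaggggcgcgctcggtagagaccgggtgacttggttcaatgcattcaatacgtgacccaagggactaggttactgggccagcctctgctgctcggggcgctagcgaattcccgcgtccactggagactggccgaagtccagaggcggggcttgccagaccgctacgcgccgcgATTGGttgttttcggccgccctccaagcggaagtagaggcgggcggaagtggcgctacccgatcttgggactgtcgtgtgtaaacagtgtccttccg
Kif11: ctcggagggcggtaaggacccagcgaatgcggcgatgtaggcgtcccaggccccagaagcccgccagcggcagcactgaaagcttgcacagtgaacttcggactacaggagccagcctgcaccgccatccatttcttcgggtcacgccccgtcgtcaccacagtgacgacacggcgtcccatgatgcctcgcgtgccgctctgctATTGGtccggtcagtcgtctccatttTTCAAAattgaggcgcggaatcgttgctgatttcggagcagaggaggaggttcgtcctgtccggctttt
Cenpf: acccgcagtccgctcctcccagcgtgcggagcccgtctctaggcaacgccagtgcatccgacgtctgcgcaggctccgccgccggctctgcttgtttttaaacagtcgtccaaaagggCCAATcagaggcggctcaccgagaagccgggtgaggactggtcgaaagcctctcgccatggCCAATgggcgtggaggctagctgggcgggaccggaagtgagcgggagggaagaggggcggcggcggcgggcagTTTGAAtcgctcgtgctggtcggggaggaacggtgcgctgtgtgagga
Kif23: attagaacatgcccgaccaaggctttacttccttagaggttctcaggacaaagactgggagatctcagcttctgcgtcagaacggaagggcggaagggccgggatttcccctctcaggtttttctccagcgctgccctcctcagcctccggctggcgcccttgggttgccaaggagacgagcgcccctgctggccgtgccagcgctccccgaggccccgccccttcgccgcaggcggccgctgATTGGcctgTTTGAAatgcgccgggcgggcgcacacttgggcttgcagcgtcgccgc

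Kif11, Cenpf and Kif23 each carried 1 TTTGAA element close to the start, with its first base at -19, 3 and 3 from it, and Mcm7 carried 2 E2F words at its first start, of which 1 overlaps a CCAAT box. None of the motifs searched was in the Tk1 window. The RefSeq table held 28 of the 34 members, 10 of S phase and 18 of mitosis. TTTGAA was in 13 of the 18 mitosis regions (72.2%) and in 1 of the 10 S phase regions (10%), beside 18.1% of the start regions of 27025 genes. All 13 of those mitosis regions also held the NF-Y box, a pair of motifs held by 7.12% of all genes. E2F words were in 4 of the 10 S phase regions (40%), 1 of the 18 mitosis regions (5.56%) and 2.32% of all genes. CCAAT alone was common, in 80% of S phase, 88.9% of mitosis and 37.9% of all genes. A match describes letters only, not a bound site.

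Lung held the highest level of nearly every member among the wild-type tissues, and liver the lowest of most. By median TPM lung ranked first for 32 of 34 members (Dchs1 WT) and for 31 (Fat4 WT). On the log2(TPM + 1) scale genes as a whole were also lower outside lung: the median for liver minus lung was -1.44 over the members and -1.199 over all genes in the Dchs1 line, and -1.37 and -1.19 in the Fat4 line. For heart minus lung it was -1.31 and -1.296 (Dchs1) and -1.37 and -1.35 (Fat4). Liver ranked last for 27 and 25. S phase genes were far more abundant than mitosis genes: the middle S phase gene had 13.3 TPM in Dchs1 lung and 1.71 to 3.33 in the other tissues, whereas the middle mitosis gene had 1.995 TPM in lung and 0.233 to 0.474 elsewhere. In liver all 23 mitosis genes had a median under 1 TPM in both lines. Bub1, a spindle checkpoint kinase, was the lowest member outside lung, with a median of 0.0192 TPM in Dchs1 liver, where 8 of 30 libraries were listed at 0, against 1.204 TPM in lung.

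**Figure D1:**
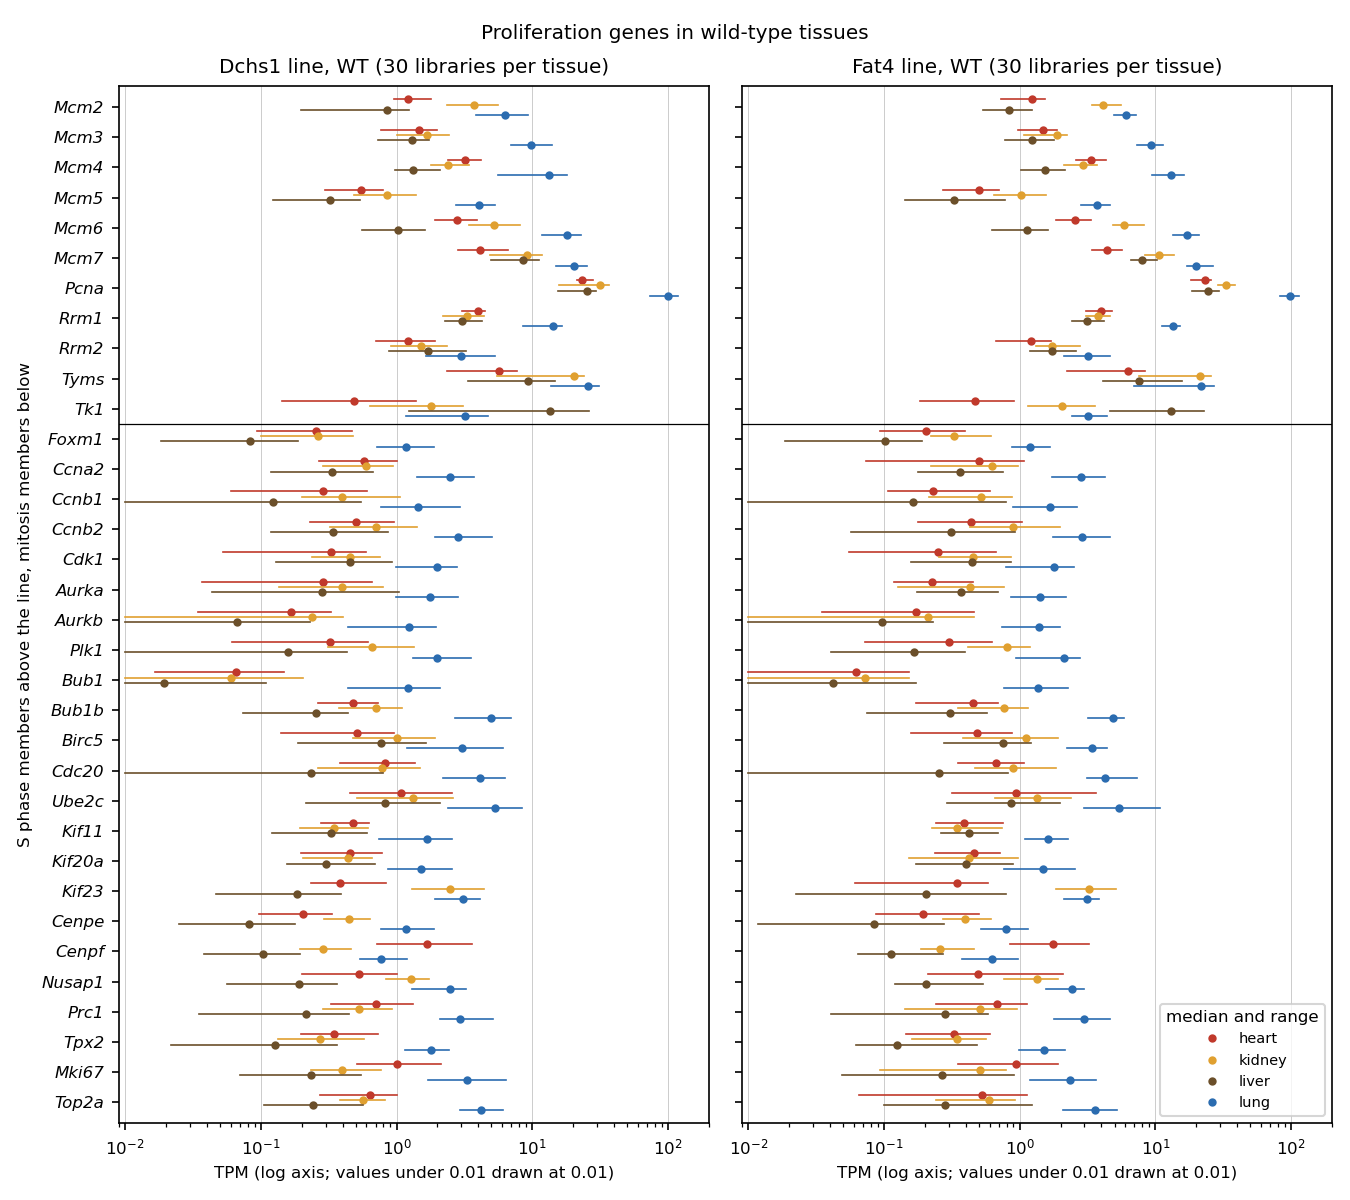
TPM (log axis) of each of the 34 members in wild-type heart, kidney, liver and lung, for the Dchs1 line (left) and the Fat4 line (right), with points for the median of 30 libraries and bars for the range. Lung lies to the right for all members except Cenpf, Tk1 and, in the Fat4 line, Kif23.

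Pcna was the most abundant member in every tissue. Its lowest, median and highest TPM in Dchs1 WT were 73.5, 100.5 and 119 for lung, 15.7, 31.5 and 36.7 for kidney, 15.5, 25.2 and 29.3 for liver, and 21.4, 23.3 and 27.9 for heart. Every lung library was above every library of the other tissues, while the ranges of the other 3 tissues overlapped. In the Fat4 line the medians were 98.2 TPM in lung, 33.1 in kidney, 24.6 in liver and 23.04 in heart. Mcm5, a helicase subunit, followed the order lung, kidney, heart, liver in both lines. Its lowest, median and highest TPM in Dchs1 WT were 2.76, 4.03 and 5.28 in lung, 0.488, 0.852 and 1.39 in kidney, 0.298, 0.543 and 0.798 in heart and 0.123, 0.321 and 0.540 in liver. Only the lung range of Mcm5 stood clear of the others.

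Mki67, which coats mitotic chromosomes and is the usual marker of cycling cells, ordered by TPM as lung, heart, kidney, liver. Its lowest, median and highest TPM in Dchs1 WT were 1.69, 3.28 and 6.39 in lung, 0.513, 1.01 and 2.11 in heart, 0.236, 0.399 and 0.767 in kidney and 0.0698, 0.233 and 0.544 in liver. The Fat4 medians were 2.33, 0.934, 0.506 and 0.266 TPM. Neighbouring tissues overlapped in both lines. The order of lung and heart depended on the scale, since counts gave a log2 difference, heart minus lung, of -0.08 (SE, standard error, 0.11, edgeR adjusted p = 0.49) in the Dchs1 line and 0.30 (SE 0.12, p = 0.016) in the Fat4 line. Top2a, the topoisomerase that untangles sister chromosomes, had medians of 4.20 TPM in Dchs1 lung, 0.632 in heart, 0.570 in kidney and 0.241 in liver, and of 3.58, 0.526, 0.594 and 0.283 in the Fat4 line. Its lung libraries did not overlap those of any other tissue in either line. Foxm1, the activator of mitosis genes, had medians of 1.18 TPM in Dchs1 lung, 0.254 in heart, 0.265 in kidney and 0.0835 in liver, and of 1.2, 0.205, 0.327 and 0.101 in the Fat4 line. On counts Foxm1 was higher in heart than in kidney in the Dchs1 line (log2 difference 0.26, SE 0.099, edgeR adjusted p = 0.013), and the pair did not differ beyond its spread in the Fat4 line (-0.097, SE 0.10, p = 0.38).

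Counts scaled across tissues by edgeR also ranked lung over liver. Most genes differ between tissues, so each count of members stands beside the share of all genes called the same way. In the Dchs1 line 29 of 34 members were higher in lung (49.4% of all genes) and 4 in liver (43.1%), with 92.5% of all genes called either way. The median log2 difference, liver minus lung, was -1.56 over the members and -0.13 over all genes. In the Fat4 line 29 were higher in lung (49.3%) and 5 in liver (45.3%), with 94.5% called. Heart against lung gave 2 members higher in heart (38%) and 31 in lung (50.5%) for Dchs1 (88.5% called), and 3 (39.6%) and 30 (50.8%) for Fat4 (90.4% called). Kidney against lung gave 4 higher in kidney (43.2%) and 27 in lung (46.2%) for Dchs1 (89.3% called), and 5 (44.8%) and 25 (46.6%) for Fat4 (91.4% called). In each of these 6 tests more members were higher in lung than in the other tissue.

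Among the other tissues liver was the lowest for most members. Heart against liver gave 26 higher in heart (45.6%) and 7 in liver (43.8%) for Dchs1 (89.4% called), and 22 (46%) and 7 (44.6%) for Fat4 (90.7% called). Kidney against liver gave 22 higher in kidney (46.6%) and 8 in liver (40.6%) for Dchs1 (87.2% called), and 18 (47.8%) and 9 (41.7%) for Fat4 (89.6% called). Heart against kidney gave 15 higher in heart (42.3%) and 10 in kidney (44.9%) for Dchs1 (87.1% called), and 12 (43.7%) and 12 (45.9%) for Fat4 (89.5% called). That last pair depended on the scale, because log2(TPM + 1) gave 5 higher in heart and 19 in kidney for Dchs1, and 5 and 22 for Fat4. On TPM kidney against liver gave 26 and 2 in both lines, kidney against lung 0 and 34 (Dchs1) and 0 and 31 (Fat4), and Fat4 liver against lung 1 and 32. TPM moved the median of all genes as well, to -0.30 for Dchs1 heart minus kidney and to -1.296 for heart minus lung, from -0.032 and -0.18 on counts.

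Tk1, Cenpf and Kif23 departed from the lung-first order. Tk1, the salvage enzyme for thymidine, was highest in liver, with lowest, median and highest TPM of 1.23, 13.6 and 26.2 in Dchs1 WT against 1.18, 3.20 and 4.70 in lung, and with medians of 13.1 and 3.17 in the Fat4 line. On counts Tk1 was higher in liver than in lung by 3.56 on the log2 scale (SE 0.13, edgeR adjusted p = 1.3e-51) and by 3.52 in the Fat4 line (SE 0.10, p = 4.1e-64). Tk1 overlaps the gene Afmid on the opposite strand, and the division of reads between the 2 genes is uncertain in these levels too. Cenpf, a large kinetochore protein, was highest in heart, with TPM of 0.722, 1.69 and 3.61 in Dchs1 WT against 0.537, 0.762 and 1.19 in lung. Its log2 difference of heart over lung was 2.69 (SE 0.10, edgeR adjusted p = 7.0e-51) and 3.09 in the Fat4 line (SE 0.090, p = 9.1e-64). Kif23, the central spindle motor of cytokinesis, had kidney levels near those of lung, with medians of 2.496 TPM in kidney and 3.11 in lung (Dchs1) and of 3.24 and 3.11 (Fat4), whereas heart had 0.384 and 0.344 TPM. On counts Kif23 was higher in kidney than in lung by 0.78 (SE 0.089, edgeR adjusted p = 2.3e-14) and by 1.12 in the Fat4 line (SE 0.096, p = 1.9e-21).

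Single proliferation genes differed between Het and WT, in both directions. In the Dchs1 line 20 of 44 tests of S phase genes and 7 of 73 tests of mitosis genes passed an edgeR adjusted p of 0.05. In Dchs1 heart 5 members rose (26.1% of all genes tested did) and 2 fell (24.1%) of 31 tested, beside 50.2% of all genes called. In Dchs1 kidney 7 rose (23.4%) and 3 fell (23.8%) of 32 (47.2% called), in liver 3 rose (24.3%) and 2 fell (25.4%) of 20 (49.8% called), and in lung 1 rose (9.6%) and 4 fell (10.4%) of 34 (20% called). In Fat4 kidney 1 rose (9.21%) and 1 fell (7.87%) of 32 (17.1% called). In Fat4 liver 0 rose (3.64%) and 2 fell (3.51%) of 20 (7.15% called). In Fat4 heart 0 rose (0.969%) and 0 fell (0.628%) of 28 (1.6% called), and in Fat4 lung 0 rose (0.11%) and 0 fell (0.0259%) of 34 (0.136% called). The members called were 22.6% of those tested in Dchs1 heart, 31.2% in kidney and 25% in liver, below the share of all genes in each. They were also below it in Dchs1 lung (14.7%) and Fat4 kidney (6.25%), and above it in Fat4 liver (10%). By class the S phase genes called were 36.4% in Dchs1 heart, 72.7% in kidney, 36.4% in liver and 36.4% in lung, above the share of all genes in kidney and lung and below it in heart and liver. In Fat4 kidney and liver they were 18.2% each, or 2 of 11 genes. That was near the share of all genes in kidney (17.1%) and above it in liver (7.15%). The mitosis genes called were 15% in Dchs1 heart, 9.52% in kidney, 11.1% in liver and 4.35% in lung, below the share of all genes in each, and 0% in the Fat4 line. The median log2 change over the members tested lay between -0.15 (Fat4 liver) and 0.051 (Dchs1 heart), beside medians of all genes within 0.009 of 0. In liver the 9 mitosis genes tested all had log2 changes below 0, with a median of -0.26 and a range of -0.58 to -0.013 in the Dchs1 line and of -0.18 and -0.39 to -0.12 in the Fat4 line, although 1 and 0 of them passed. Members that passed the filter on low counts were all 34 in lung but 20 in liver. Mitosis genes were read thinly: the middle WT median count of those tested was 15.0 to 22.5 reads outside lung with a median SE of 0.11 to 0.16, against 60.5 to 163.0 reads and SE of 0.047 to 0.088 for S phase genes.

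**Figure D2:**
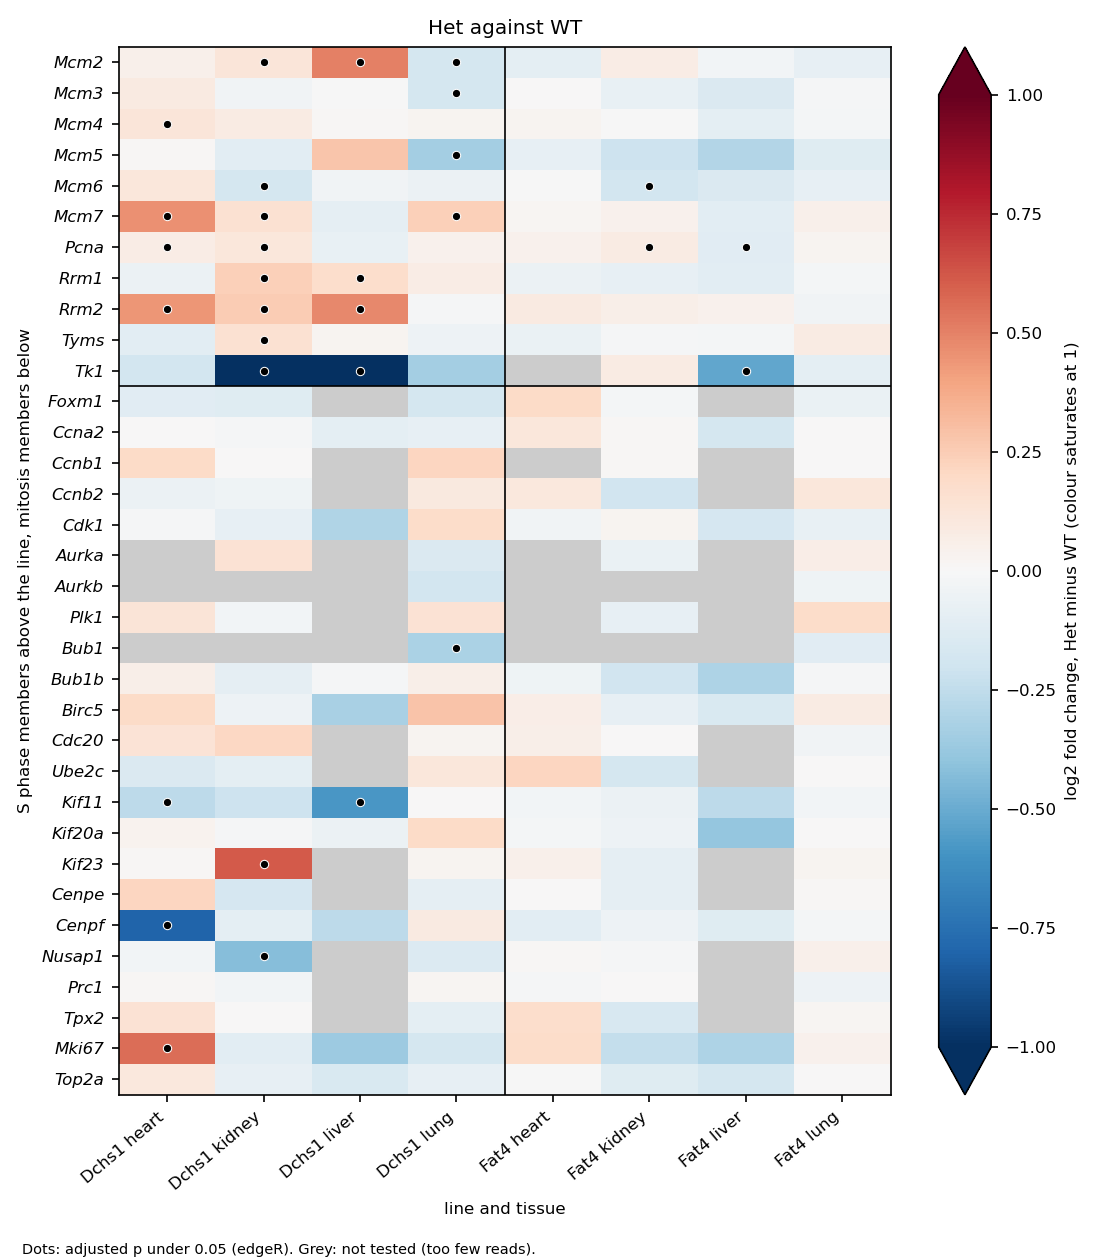
Log2 fold change, Het minus WT, of each member (rows) in each line and tissue (columns), from edgeR, with black dots at adjusted p under 0.05 and grey where a gene had too few reads for a test. Dots are densest in the S phase rows of the Dchs1 columns, and 0 of them lie in the Fat4 heart and Fat4 lung columns.

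In the heart of Dchs1 Het mice Mki67 and Mcm7 were higher and Cenpf was lower. The lowest, median and highest TPM of Mki67 were 0.513, 1.01 and 2.11 in WT and 0.952, 1.62 and 2.13 in Het. The Het hearts sat in the upper part of the WT range, and 29 of 30 were above the WT median in CPM. Mki67 rose by 0.56 on the log2 scale (SE 0.097, edgeR adjusted p = 2.5e-06). Cenpf had 0.722, 1.69 and 3.61 TPM in WT and 0.688, 0.970 and 1.95 in Het, and 29 of 30 Het hearts were below the WT median. Cenpf fell by 0.80 (SE 0.11, edgeR adjusted p = 4.0e-08), although its heart level was the highest of any tissue. Mcm7, a helicase subunit, had 2.82, 4.12 and 6.66 TPM in WT and 2.79, 5.88 and 8.14 in Het, with 29 of 30 Het hearts above the WT median and overlapping ranges. Mcm7 rose by 0.46 (SE 0.056, edgeR adjusted p = 5.3e-10). Rrm2, the regulated subunit of ribonucleotide reductase, went from a median of 1.22 to 1.63 TPM and rose by 0.44 (SE 0.084, p = 1.0e-05). Mcm4 rose by 0.12 (p = 0.014) and Pcna by 0.071 (p = 0.0083). Kif11, the motor that separates spindle poles, fell by 0.26 (SE 0.11, p = 0.047), a call that was lost in the longest run of library numbers (p = 0.096), without a filter on low counts (p = 0.062) and without the hearts holding lung RNA (p = 0.22). In those last libraries Mki67 (0.56, p = 5.1e-05) and Cenpf (-0.74, p = 2.1e-06) kept their calls. Top2a, from a median of 0.632 to 0.606 TPM, had a log2 difference of 0.11 (SE 0.13, p = 0.52), and Foxm1 -0.11 (SE 0.13, p = 0.49), so these did not pass where Mki67 did. Among cell type markers, 4 of 7 fibroblast genes fell and 1 rose, 4 of 8 endothelial genes rose and 1 fell, and 4 of 6 red cell genes fell in these hearts. Also lower were 2 of 4 heart muscle genes, 2 of 4 B cell genes and 1 of 7 macrophage genes tested. These counts stand beside 50.2% of all genes called. The part of these cells in the result was not tested.

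**Figure D3:**
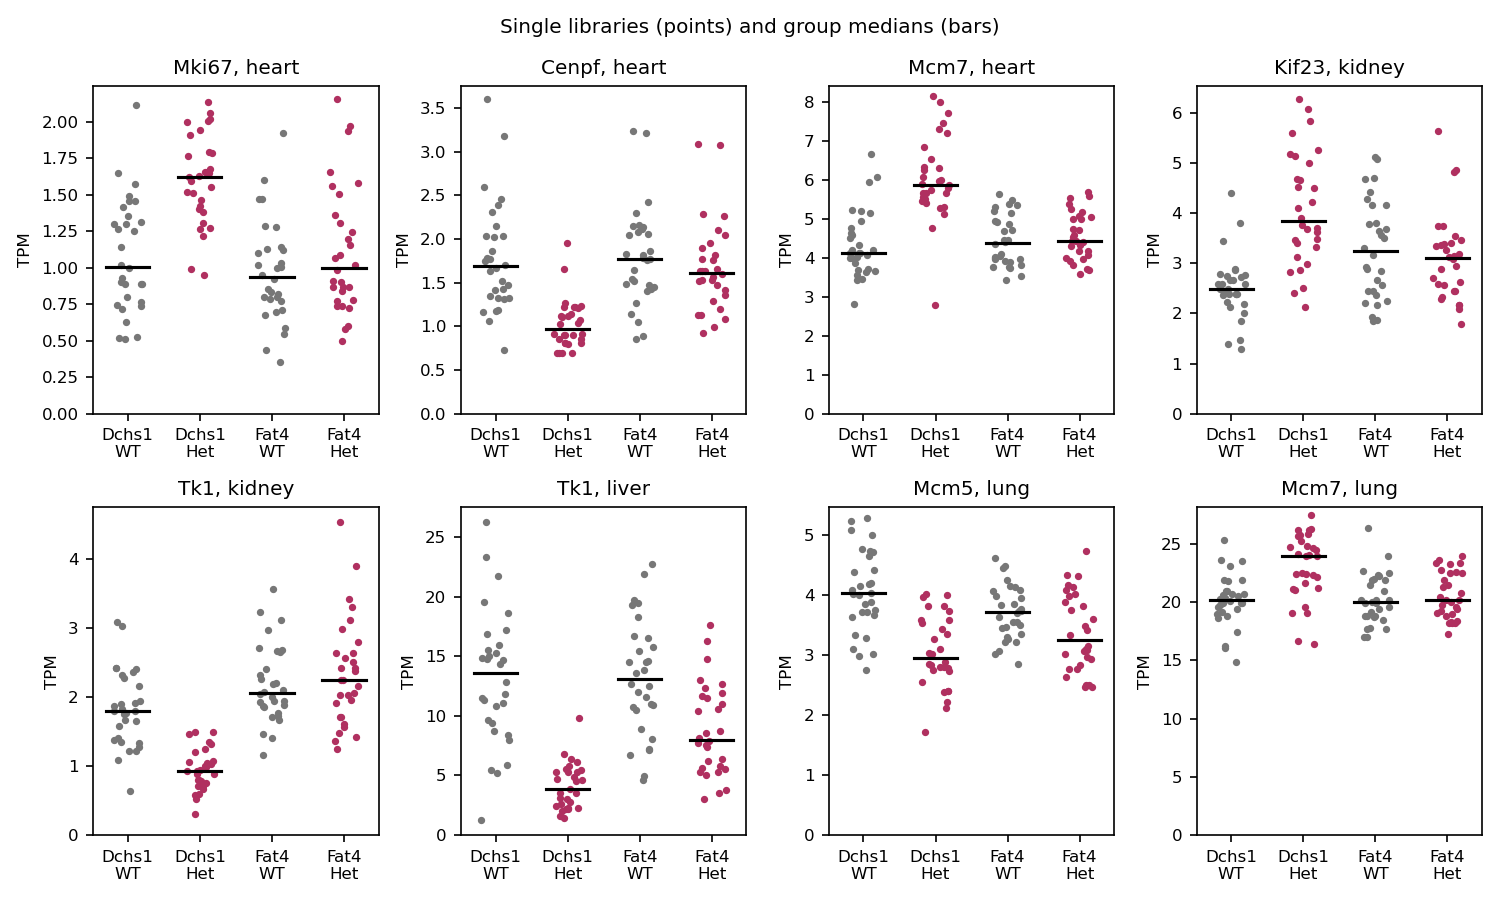
TPM of single libraries (points) and group medians (bars) for 6 genes in 8 panels of gene and tissue, in WT (grey) and Het (red) of both lines. Tk1 drops in the Dchs1 Het kidney and liver, where 30 of 30 and 29 of 29 libraries are below the WT median, while Mki67 in Dchs1 Het heart and Kif23 in Dchs1 Het kidney shift up with overlapping ranges.

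In Dchs1 Het kidney Tk1 fell, Kif23 rose, and 6 other S phase genes rose slightly. Tk1 had lowest, median and highest TPM of 0.636, 1.80 and 3.09 in WT and 0.305, 0.931 and 1.49 in Het. All 30 Het kidneys were below the WT median, and mean CPM was 50.7% of WT. The log2 change of Tk1 was -1.05 (SE 0.11, edgeR adjusted p = 2.0e-11), from medians of 28 and 16 reads. Kif23 had 1.29, 2.496 and 4.41 TPM in WT and 2.13, 3.85 and 6.30 in Het, with 12 of 30 Het kidneys outside the WT range in CPM. Kif23 rose by 0.61 (SE 0.095, edgeR adjusted p = 2.8e-07). The spindle protein Nusap1 fell by 0.42 (SE 0.084, p = 3.1e-05), with medians of 1.27 and 1.06 TPM. All 3 B cell and all 5 T and NK cell markers tested fell in these kidneys. Of other markers, 1 of 4 tubule and glomerulus genes rose and 2 fell, and 2 of 7 fibroblast genes rose and 1 fell. Of 3 hepatocyte genes tested 2 rose and 1 fell. These counts stand beside 47.2% of all genes called, and the part of these cells in the result was not tested. Rrm1, the large subunit of ribonucleotide reductase, rose by 0.24 (SE 0.046, p = 1.3e-05) from a median of 3.33 to 4.12 TPM. Rrm2 rose by 0.26 (p = 0.0028), Tyms by 0.16 (p = 0.00058), Mcm7 by 0.15 (p = 0.00050), Pcna by 0.12 (p = 0.0018) and Mcm2 by 0.12 (p = 0.043). Mcm6 fell by 0.18 (SE 0.059, p = 0.0096). Mki67 (0.399 and 0.394 TPM), Top2a (0.570 and 0.566), Foxm1 (0.265 and 0.274) and Mcm5 (0.852 and 0.855) had near equal median TPM in WT and Het. On counts the log2 changes were -0.125 for Foxm1 and -0.11 to -0.083 for Mki67 and Top2a, and these did not pass. The SE on counts were 0.089 to 0.15 over the 4 genes. On log2(TPM + 1) the median Het minus WT of all genes was 0.082 in kidney, against 0.0052 on counts.

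In Dchs1 Het liver the dominant change was again Tk1. Its lowest, median and highest TPM were 1.23, 13.6 and 26.2 in WT and 1.47, 3.88 and 9.81 in Het. All 29 Het livers were below the WT median, although the ranges overlapped. Mean CPM was 30.9% of WT, and the log2 change was -1.64 (SE 0.17, edgeR adjusted p = 8.9e-12), from medians of 222 and 69 reads. Kif11 fell by 0.58 (SE 0.12, p = 8.2e-05), with medians of 0.332 and 0.213 TPM. The helicase subunit Mcm2 rose by 0.51 (SE 0.14, p = 0.0017), from 0.848 to 1.04 TPM, and Rrm2 by 0.48 (SE 0.13, p = 0.0016), from 1.71 to 2.41 TPM. Rrm1 rose by 0.17 (SE 0.070, p = 0.033), which did not pass in the longest run of library numbers (p = 0.077) or on TPM (p = 0.12). Mki67 (0.233 and 0.164 TPM; log2 -0.36, SE 0.16, p = 0.059) and Pcna (25.2 and 23.7 TPM; -0.077, p = 0.051) did not pass, nor did Mcm5 (0.28, p = 0.051). In the longest run of library numbers alone, with 20 libraries per group, Mki67 did pass (-0.60, p = 0.017), and the members called were then 2 higher and 4 lower. Top2a had medians of 0.241 and 0.217 TPM (-0.15, p = 0.48), and Foxm1 was not tested, with a median of 4 reads. Of the markers, 2 of 8 endothelial genes rose and 3 fell, 3 of 7 fibroblast genes rose and 1 fell, and 3 of 4 hepatocyte genes rose and 1 fell (log2 -0.58 to 0.83), beside 49.8% of all genes called. Their part in the result was not tested.

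Tk1 lies at chr11:117815519-117826087 and overlaps Afmid, a gene of tryptophan breakdown on the opposite strand. Afmid fell too, by 0.88 in Dchs1 kidney (SE 0.071, edgeR adjusted p = 5.0e-16) and by 0.61 in Dchs1 liver (SE 0.095, p = 2.3e-07), and had -0.16 in Fat4 liver (p = 0.10). Syngr2, 1243 bases from Tk1, fell by 0.30 and 0.18 in Dchs1 kidney and liver. Mcm7, at chr5:138164583-138172111, overlaps Ap4m1 and Cops6 on the opposite strand. Ap4m1 rose in Dchs1 heart (0.28, p = 5.0e-05), kidney (0.22, p = 4.9e-05) and lung (0.23, p = 0.0029), the tissues where Mcm7 rose, while Cops6 did not pass in any of them. Nusap1 overlaps Oip5 on the opposite strand, which had -0.24 in Dchs1 kidney (edgeR adjusted p = 0.10). Tmem230, 1355 bases from Pcna, rose by 0.11 in Dchs1 kidney (p = 0.0016) and did not pass elsewhere where Pcna did. The libraries were strand-specific per the labels, but no source used here says whether the counting used strand. The division of reads between Tk1, Mcm7 or Nusap1 and these neighbours is therefore uncertain. Rrm1 lies 3.28 Mb from Dchs1 on chromosome 7, and Mki67, Plk1 and Prc1 lie 16.4 to 29.9 Mb from it. Ccna2, which passed in 0 comparisons, lies 2.31 Mb from Fat4 on chromosome 3, and Cenpe lies 96.2 Mb from Fat4.

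In Dchs1 Het lung, where proliferation genes were best read, 3 helicase subunits fell slightly and Mcm7 rose. Mcm5 had lowest, median and highest TPM of 2.76, 4.03 and 5.28 in WT and 1.72, 2.95 and 4.02 in Het. The ranges overlapped, but 28 of 30 Het lungs were below the WT median. Mcm5 fell by 0.34 (SE 0.071, edgeR adjusted p = 0.00025). Mcm7 had 14.9, 20.2 and 25.3 TPM in WT and 16.4, 24.0 and 27.5 in Het, and rose by 0.24 (SE 0.052, p = 0.00039). Mcm3 fell by 0.17 (p = 0.0087), Mcm2 by 0.17 (p = 0.018) and Bub1 by 0.32 (SE 0.088, p = 0.0063), the last from a median of 1.204 to 0.954 TPM. The call of Mcm2 was lost on TPM (limma adjusted p = 0.054) and without 2 WT and 3 Het lungs whose profiles stood apart (p = 0.050). Mki67 (3.28 and 2.75 TPM; p = 0.22), Top2a (4.20 and 3.63; p = 0.59), Foxm1 (1.18 and 1.03; p = 0.081) and Pcna (100.5 and 98.2; p = 0.57) did not pass. Lymphocyte markers moved in the same libraries: 6 of 8 B cell genes and 9 of 10 T and NK cell genes fell, with summed B cell TPM of 22.96 to 436.8 (median 171.2) in WT and 27.4 to 273.0 (median 94.0) in Het, and summed T and NK cell TPM of 21.4 to 136.6 (median 86.1) and 18.3 to 136.5 (median 45.7). Of the fibroblast markers 5 of 7 fell. These counts stand beside 20% of all genes called. The part of these cells in the result was not tested.

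In the Fat4 line 4 calls were made, all in S phase genes. In Fat4 Het liver Tk1 fell by 0.52 (SE 0.14, edgeR adjusted p = 0.014), with lowest, median and highest TPM of 4.65, 13.1 and 22.7 in WT and 3.04, 8.01 and 17.6 in Het. The ranges overlapped widely, and 26 of 30 Het livers were below the WT median. Pcna fell in the same livers by 0.12 (SE 0.036, p = 0.034), with medians of 24.6 and 21.0 TPM, a call lost in the longest run of library numbers (p = 0.071). In Fat4 Het kidney Pcna rose by 0.081 (SE 0.022, p = 0.0096), from 33.1 to 35.3 TPM, and Mcm6 fell by 0.18 (SE 0.055, p = 0.016), from 5.89 to 5.15 TPM. In those kidneys 7 of 8 endothelial markers fell as well, beside 17.1% of all genes called. The part of endothelial cells was not tested. In Fat4 heart 0 members were called, 0 had an unadjusted p under 0.05, and DESeq2 and limma called 0 too. In Fat4 lung edgeR called 0 members, DESeq2 and limma 0, and 4 had an unadjusted p under 0.05.

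Mki67, Top2a, Mcm5 and Foxm1 passed in 0 of the Fat4 comparisons. Median TPM of Mki67 in WT and then Het was 0.934 and 0.999 for heart, 0.506 and 0.408 for kidney, 0.266 and 0.230 for liver, and 2.33 and 2.43 for lung, with edgeR adjusted p of 0.13 to 0.91. Top2a had 0.526 and 0.619, 0.594 and 0.535, 0.283 and 0.275, and 3.58 and 3.55 TPM in the same order, with adjusted p of 0.47 to 0.996. Those of Mcm5 were 0.498 and 0.470 TPM for heart, 1.03 and 0.867 for kidney, 0.326 and 0.268 for liver, and 3.71 and 3.24 for lung, and its adjusted p were 0.068 to 0.68. Foxm1 had 0.205 and 0.235 TPM in heart, 0.327 and 0.325 in kidney and 1.2 and 1.22 in lung, and was not tested in liver. Pcna had 23.04 and 23.2 TPM in heart and 98.2 and 100.8 in lung (edgeR adjusted p = 0.34 and 0.89).

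Among the 23 mitosis genes, 17 passed in 0 of the comparisons where they were tested, which were 2 for Aurkb, 4 for Aurka, 8 for Ccna2, Cdk1, Bub1b, Birc5, Kif20a and Top2a, and 5 or 6 for the others. They were Foxm1, the cyclins with Cdk1, Aurka, Aurkb, Plk1, Bub1b, Birc5, Cdc20, Ube2c, Kif20a, Cenpe, Prc1, Tpx2 and Top2a. Where tested, their log2 changes ran from -0.39 (Fat4 liver) to 0.28 (Dchs1 lung). In Fat4 lung, the most precise comparison, they ran from -0.074 to 0.19 with a median SE of 0.067. Each of the 11 S phase genes, 10 of them tested in all 8 comparisons and Tk1 in 7, passed in at least 1 comparison, led by Pcna in 4 and by Mcm2, Mcm7, Rrm2 and Tk1 in 3. The share of all genes that passed in at least 1 comparison was not computed. In single Dchs1 comparisons 20% (lung) to 50.2% (heart) of all genes passed. Mitosis genes also had fewer reads than S phase genes, so the 2 classes were not tested with equal precision. Rrm2 and Mcm7 rose in each comparison where they passed, Tk1 fell in each, and Pcna and Mcm2 went both ways.

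The difference of the Het effect between the lines was tested directly. In heart it passed for Mcm7, Cenpf and Rrm2, 3 of 32 members tested (25.5% of all genes called). In kidney it passed for Tk1, Rrm1, Kif23, Tyms and Nusap1, 5 of 32 (33.5%), and in liver for Tk1, Mcm5, Mcm2, Rrm1 and Rrm2, 5 of 26 (23.6%). In lung edgeR called 0 of 34 members (5% of all genes), so the helicase changes of Dchs1 lung were not shown to differ from those of Fat4 lung. Tk1 differed most, its Het change being 1.12 (kidney) and 1.11 (liver) log2 units higher in the Fat4 line. Mki67 in heart was called in the Dchs1 line only, but its line difference did not pass (-0.37, SE 0.17, edgeR adjusted p = 0.092). Among tissues of the Dchs1 line the Het effect differed for 15 of 34 members (52.2% of all genes called), first for Tk1 (edgeR adjusted p = 1.7e-10), Mcm7 (1.7e-09), Cenpf (1.1e-07), Kif23 (8.6e-07), Mcm2 (1.5e-06) and Mki67 (1.5e-05). Among tissues of the Fat4 line it differed for Pcna and Tk1 (7.13% of all genes called).

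Within most groups of wild-type libraries more mitosis genes than S phase genes varied together with Mki67, but not in Dchs1 liver. Mki67 was correlated with each of the 33 other members on log2 CPM across the 30 libraries of each of 8 WT groups, 264 relations in all, with permutation p-values adjusted by Benjamini-Hochberg. Top2a passed in all 8 groups, with Pearson r from 0.52 in Dchs1 heart (Spearman rho 0.43, adjusted permutation p = 0.014 and 0.048) to 0.88 in Fat4 lung (rho 0.87, adjusted permutation p = 0.00017 and 0.00024, the smallest the permutations give). Without the 2 libraries farthest in Mki67, Top2a kept r of 0.46 and 0.83. The median r over the 22 other mitosis genes was 0.62 in Fat4 lung, 0.51 in Fat4 liver, 0.47 in Fat4 kidney, 0.45 in Dchs1 lung and 0.32 to 0.41 in the other groups. Over the 11 S phase genes it was between -0.18 and 0.19. Mitosis genes that passed numbered 18 of 22 in Fat4 lung, 16 in Fat4 liver and 4 in Dchs1 liver. S phase genes that passed numbered 0 to 4 of 11 per group, and in Dchs1 heart 1 passed with a negative r. In Dchs1 liver 4 of 11 S phase genes passed, beside 4 of 22 mitosis genes. Without the 2 farthest libraries the median r there was 0.35 for S phase and 0.33 for mitosis genes. Mki67 was correlated with members only, so no share of all genes stands beside these counts. Whether the genes that passed outnumber other genes was not tested. Points within a group share the tissue and the sequencing, and counting noise differs with depth.

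**Figure D4:**
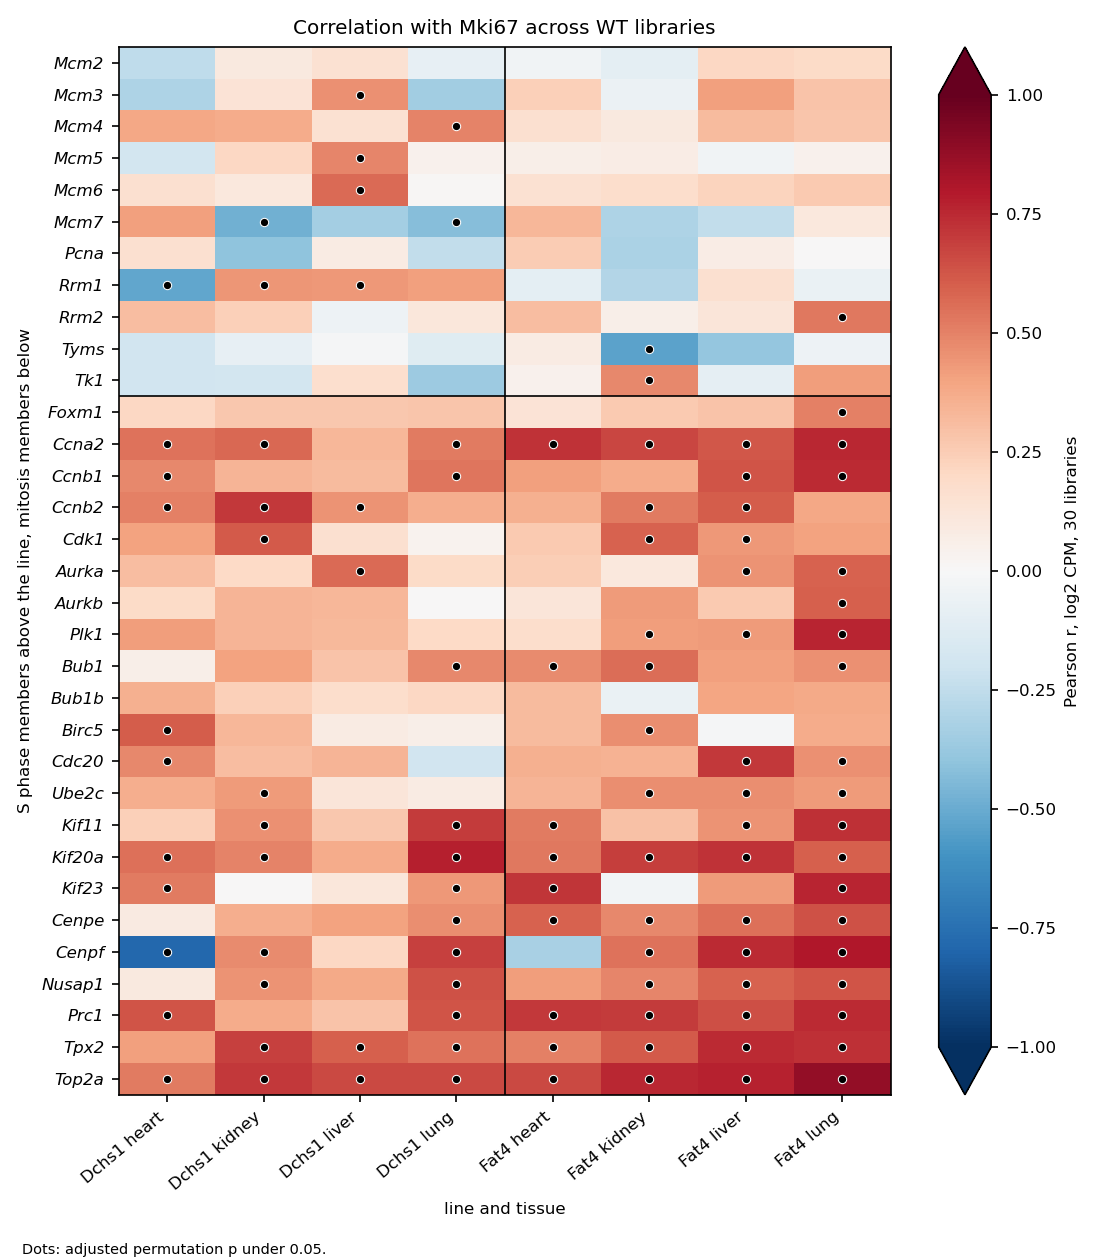
Pearson r of each member with Mki67 across 30 WT libraries per line and tissue (log2 CPM), with black dots at an adjusted permutation p under 0.05. Mitosis rows, below the line, are mostly red, with the Cenpf cells of the heart columns blue, and S phase rows are mixed.

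Cenpf ran against Mki67 in Dchs1 WT heart and with it in lung. In Dchs1 WT heart r was -0.78 (rho -0.83, adjusted permutation p = 0.00017 and 0.00024), -0.82 without the 2 farthest libraries and -0.77 within the longest run of library numbers. In Fat4 WT heart r was -0.33 (rho -0.29, adjusted permutation p = 0.13 and 0.21), and it was -0.079 without the 2 farthest libraries and -0.55 within the longest run. In WT lung r was 0.68 (Dchs1; rho 0.67, adjusted permutation p = 0.00024 and 0.0014) and 0.80 (Fat4; rho 0.85, adjusted permutation p = 0.00017 and 0.00024). In Dchs1 WT kidney r was 0.48 (rho 0.27, adjusted permutation p = 0.026 and 0.25), 0.19 without the 2 farthest libraries, on which it rests, and 0.62 within the longest run. Among the Dchs1 Het kidneys r was 0.82 (rho 0.79, adjusted permutation p = 2.7e-05 and 2.3e-05 over 16 relations), and 0.73 without the 2 farthest libraries. Prc1, the cross-linker of the central spindle, had the highest r with Mki67 in Dchs1 hearts (0.63, rho 0.61, adjusted permutation p = 0.0018 and 0.0038). Mcm7 had the lowest r in Dchs1 kidney (-0.48, rho -0.40, adjusted permutation p = 0.024 and 0.073), and r moved to -0.29 without the 2 farthest libraries, on which it rests, and was -0.53 within the longest run.

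**Figure D5:**
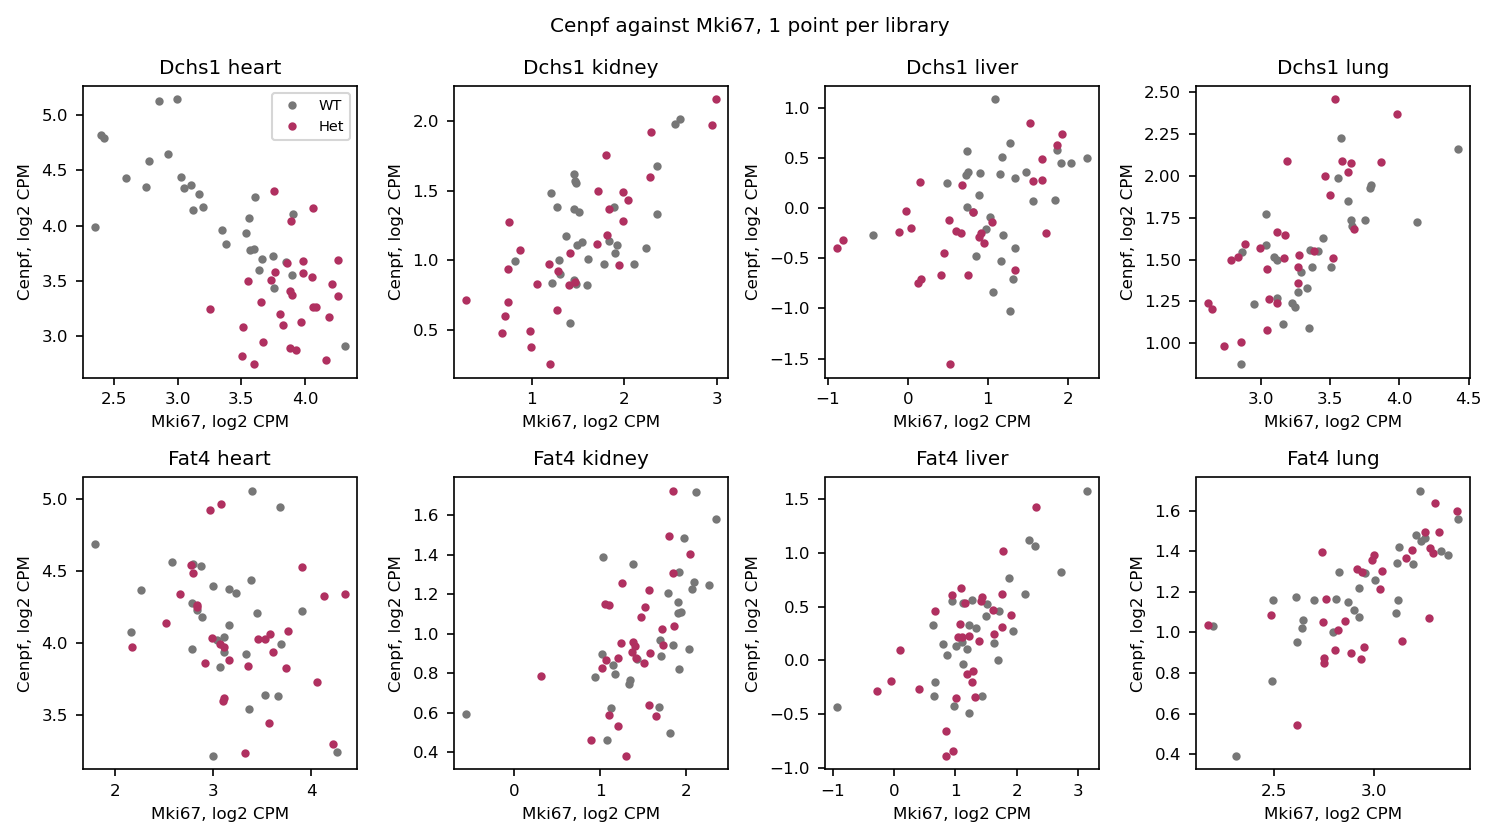
Cenpf against Mki67, both as log2 CPM, with 1 point per library, WT grey and Het red, for each line and tissue. The Dchs1 WT hearts slope down (r = -0.78), the Dchs1 Het hearts gather at high Mki67 and low Cenpf, and the lungs of both lines slope up.

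Genes around the 34 members moved in both directions as well. The shares of all genes called were 50.2% in Dchs1 heart, 47.2% in kidney, 49.8% in liver and 20% in lung, and 17.1% in Fat4 kidney and 7.15% in Fat4 liver. Of 25 other replication genes, 11 rose and 2 fell of 20 tested in Dchs1 heart (65%), led by Uhrf1, which carries DNA methylation through replication (0.54, SE 0.098), and by the polymerase subunit Pola1 (-0.38). In Dchs1 liver 2 rose and 9 fell of 21 (52.4%), among them the helicase activator Mcm10 (-0.59) and the histone chaperone Chaf1b (0.88). In Dchs1 kidney 4 rose and 3 fell of 23, or 30.4% (Gins2 0.40, Prim1 0.19), and in Dchs1 lung 2 rose and 4 fell of 24, or 25% (Uhrf1 -0.48, Gins3 -0.23, Pole 0.25). In the Fat4 line 1 fell of 23 in kidney (Lig1 -0.17) and 2 of 21 in liver, among them Lig1 (-0.34). Of 30 other mitosis genes, 3 rose and 2 fell of 17 in Dchs1 heart, or 29.4% (Smc4 0.30, Cenpa -0.50, Spc25 0.43), 1 rose and 4 fell of 20 in kidney, or 25% (Smc2 -0.23, Ect2 -0.42, Spc25 -0.23), 4 fell of 13 in liver, or 30.8% (Spc25 -0.92, Spc24 -0.33, Cenpn -0.45) and 2 fell of 30 in lung, or 6.67% (Kif4 -0.25, Espl1 -0.21). Spc25, part of the kinetochore complex that grips microtubules, also fell in Fat4 liver (-0.49, SE 0.11), the only one of 14 tested there.

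Regulators of the E2F and MuvB switch, 18 genes, moved both ways. Of all genes, 50.2% were called in Dchs1 heart, 47.2% in kidney, 49.8% in liver and 20% in lung. In Dchs1 heart 6 rose and 5 fell of 16 (68.8%), with the pocket protein Rbl2 up (0.52), E2f6 down (-0.27) and the E2F partner Tfdp2 up (0.59). In Dchs1 liver 3 rose and 4 fell of 17 (41.2%), with E2f1 (-0.90, SE 0.11) and E2f8 (-1.08, SE 0.17) down and E2f6 up (0.21). In Dchs1 kidney 3 rose and 3 fell of 16, or 37.5% (E2f1 -0.37, Tfdp2 0.20, E2f2 -0.38), and in lung 4 rose and 4 fell of 18, or 44.4% (E2f2 -0.24, Lin52 0.26, E2f1 -0.29). E2f1, the classic activator of S phase genes, fell in Fat4 liver too (-0.40, SE 0.11), where Tfdp1 rose (0.17), as it did in Fat4 kidney (0.093). E2f1 fell in the 3 comparisons where Tk1 fell, and also in Dchs1 lung, where Tk1 did not pass (-0.34, p = 0.061). Other S phase genes, among them Rrm1 and Rrm2, rose in Dchs1 kidney and liver, where E2f1 fell. A link between E2f1 and these genes was not tested.

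A list of 11 G1 genes held cyclins and kinases together with Myc, Mycn and the phosphatase gene Cdc25a. Ccnd2, a cyclin of G1 entry, fell in Dchs1 heart (-0.60, SE 0.050), kidney (-0.30) and lung (-0.22), and in Fat4 kidney (-0.20). Ccnd1 fell in Dchs1 heart (-0.17), kidney (-0.37) and lung (-0.21) and rose in liver (0.83, SE 0.19). Myc rose in Dchs1 heart (0.79, SE 0.11), kidney (0.49) and liver (1.04), and in Fat4 kidney (0.26). Of the list, 1 rose (Myc) and 4 fell of 11 in Dchs1 heart (45.5%), and 3 rose (Cdk2, Cdc25a and Myc) and 2 fell of 10 in kidney (50%). In Dchs1 liver 6 rose and 1 fell of 9 (77.8%), with Cdk4 (0.37), Ccnd3 (0.40), Ccnd1, Ccne2, Cdc25a and Myc up and Cdk2 down (-0.50), and in lung 3 fell of 11, or 27.3% (Ccne1 -0.37). The Cdk inhibitor Cdkn1a rose by 0.75 in Dchs1 heart, 1.303 in kidney, 0.88 in liver and 0.86 in lung, and by 0.47 in Fat4 kidney, and Cdkn1b rose in Dchs1 heart (0.42). Of 7 inhibitors, 3 rose and 1 fell of 5 in Dchs1 heart (80%), 1 rose and 1 fell of 6 in kidney (33.3%) and of 5 in liver (40%), and 1 rose of 6 in lung (16.7%). Beside both lists, 50.2% of all genes were called in Dchs1 heart, 47.2% in kidney, 49.8% in liver and 20% in lung. The inhibitor shares were below these except in heart. In Fat4 kidney Cdkn2b fell (-0.28), and in Fat4 liver Cdk2 (-0.20) and Cdkn2c (-0.22) fell. All these changes passed an edgeR adjusted p of 0.05, and 0 genes of the 5 lists passed in Fat4 heart or lung.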

How the data were processed

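Messenger RNA of 479 mouse tissue libraries was measured. The authors deposited estimated counts per gene, which are not whole in 15.52% (Dchs1) and 15.69% (Fat4) of values, and TPM per gene, 1 table of each per line. Per the submitters' processing notes, bcl2fastq 2.17, FastQC and GRCm38 were used, and no aligner or counter is named there. Library totals of 10720364 to 32282525 estimated counts set the precision.

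Estimated counts were rounded and tested in R 4.3.3 with edgeR 4.0.16 (quasi-likelihood F test, TMM scaling, filterByExpr with minimum count 10 and total 15, Benjamini-Hochberg over all genes tested, threshold 0.05), and an SE is the log2 change divided by the square root of F. Positions relative to the WT median were counted in CPM. In simulated counts for Dchs1 heart (13304 genes, 200 changed) 97% of changes of 1.5-fold and 70% of 1.2-fold were recovered. For Dchs1 liver (12526 genes) they were 96% and 36%, for Dchs1 lung (15069 genes) 95% and 32%, and for Dchs1 kidney (14142 genes) 98% and 66%, where 7.34% of calls were unchanged genes. The changed genes were drawn from all genes tested, so these shares do not describe thinly read mitosis genes. The 200 changed genes were also far fewer than the 6676 genes called in the real Dchs1 heart. Alternatives were DESeq2 1.42.0, its size factors in edgeR, limma 3.58.1 on log2(TPM + 1) and log2(TPM + 0.1), no filter, consecutive runs of library numbers as a covariate or the longest run alone, and leaving out libraries that stood apart. Leaving out hearts with lung epithelium RNA was added after seeing the data.

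Full values were given for Mki67, Top2a, Foxm1, Mcm5 and Pcna, for up to 8 called members per comparison by smallest p (a few more in Dchs1 kidney), up to 6 per interaction and up to 3 per pathway list, with a few other list genes named after their values were seen. The values of 1 gene of the replication list are not reported here. The members and lists were chosen with earlier results of these data known.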

Additional observations from a re-analysis of the deposited data

Results flagged for a closer look

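The effect of heterozygosity differed between the lines in 13 tests of single members, by an edgeR test of the line by genotype interaction. These were 3 of 32 members in heart (25.5% of all genes called), 5 of 32 in kidney (33.5%) and 5 of 26 in liver (23.6%). In lung 0 of 34 passed (5%), so the members were below the share of all genes in each tissue. Values are the Het effect in the Fat4 line minus that in the Dchs1 line on the log2 scale. In heart they were -0.4332 for Mcm7 (adjusted p = 2.3e-06), 0.70 for Cenpf (0.00041) and -0.3464 for Rrm2 (0.011). In kidney they were 1.12 for Tk1 (1.7e-09), -0.3306 for Rrm1 (4.5e-06), -0.7087 for Kif23 (3.2e-05), -0.1752 for Tyms (0.0045) and 0.4022 for Nusap1 (0.0056). In liver they were 1.107 for Tk1 (7.4e-05), -0.5784 for Mcm5 (0.0071), -0.5458 for Mcm2 (0.0080), -0.2951 for Rrm1 (0.0089) and -0.4552 for Rrm2 (0.032). Mcm5 passed in neither line's liver on its own, and its effects there had opposite signs (0.28 and -0.29).

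The effect also differed between tissues of 1 line, by an edgeR test of 3 interaction terms at once. It did so for 15 of 34 members in the Dchs1 line (52.2% of all genes called) and 2 of 34 in the Fat4 line (7.13%). In the Dchs1 line the adjusted p was 1.694e-10 for Tk1, 1.709e-09 for Mcm7, 1.132e-07 for Cenpf, 8.599e-07 for Kif23, 1.512e-06 for Mcm2, 1.489e-05 for Mki67, 0.0001103 for Rrm1, 0.0002262 for Mcm5, 0.001407 for Rrm2, 0.007336 for Pcna, 0.01496 for Tyms, 0.01553 for Kif11, 0.01829 for Mcm6, 0.02588 for Birc5 and 0.03966 for Mcm3. Mcm2 rose in Dchs1 kidney and liver and fell in lung. Mki67 rose in heart alone among the Dchs1 tissues in the fit of all libraries, although in the longest run of liver library numbers it fell by 0.60. In the Fat4 line the adjusted p was 0.009186 for Pcna, which rose in kidney and fell in liver, and 0.02198 for Tk1.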

How the results depend on the processing

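Of the total counts of members called or correlated with Mki67, both directions together, 109 alternatives stayed within 1.5 times and 5 moved. Directions could move within a total: on TPM, WT heart against kidney went from 15 and 10 to 5 and 19 (Dchs1) and from 12 and 12 to 5 and 22 (Fat4). Dchs1 lung went from 5 to 8 members called with library number run as a covariate (2 higher, 6 lower) and to 8 in the longest run alone (3 higher, 5 lower), both including the first 5. Dchs1 liver went from 5 to 3 under both limma settings on TPM, where 10 members were tested, and Fat4 liver from 2 to 1 in the longest run. Dchs1 liver in the longest run had 6 called, 2 higher and 4 lower, of which 4 were shared. Single members kept direction and call in 385 alternatives, lost the call in 12 and gained it in 4. Top2a changed sign near 0: in Fat4 heart (-0.0050) it was 0.002182 with DESeq2, 0.02148 with the covariate, 0.1544 in the longest run and 0.00691 without hearts holding lung RNA, and in Fat4 lung (0.0028) it was -0.01453 and -0.01831 with limma on TPM. The cause was not tested. Pcna in Dchs1 heart lost its call on TPM (limma adjusted p = 0.14), and Mcm5 gained one in Fat4 kidney in the longest run (edgeR adjusted p = 0.034). Without the lung RNA hearts Dchs1 heart had 8 members called, 7 higher and 1 lower, 6 of them shared. Fat4 lung has 1 run, so run alternatives were not made there. No paired analysis was possible because library numbers are unique and shared by no groups. Few reads limit mitosis genes outside lung.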

Other observations

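The relation of Cenpf and Top2a to Mki67 was also computed in the Het libraries, 16 relations chosen after the WT values were seen. Across 30 Dchs1 Het hearts Cenpf had r = 0.20 (rho 0.24, adjusted permutation p = 0.29 and 0.20), 0.12 without the 2 farthest libraries, where the 30 WT hearts had -0.78. The difference between these r was not tested. Across Fat4 Het hearts Cenpf had r = -0.23 (rho -0.29, adjusted permutation p = 0.24 and 0.12). In the other 6 Het groups r of Cenpf ran from 0.50 to 0.82. Top2a had r from 0.46 in Fat4 kidney to 0.86 in Dchs1 kidney over the 8 Het groups.

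Spread between WT libraries, as the biological coefficient of variation from edgeR, differed widely among members. Pcna had 4.74% in Dchs1 heart and 5.37% in Fat4 kidney, where the median over all genes was 10.6% and 10.4%. Mki67 and Top2a had 47.3% and 51.6% in Fat4 liver, where the median was 12.9%. Tk1 had 43.1% in Dchs1 liver, and Cenpf 32.4% in Dchs1 heart.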
